A study of Mus musculus with 12 samples.

Results

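The genes described here encode kinases and scaffolds of the RAF-MEK-ERK cascade, measured here in frontal cortex of APP/PS1 mice with and without Hras. They comprise 2 RAF kinase genes (Araf and Braf), 2 MEK genes (Map2k1 and Map2k2), the ERK1 gene Mapk3, and 2 KSR scaffold genes (Ksr1 and Ksr2). They were chosen by symbol, and all 7 were found among the 54532 genes of the deposited count table. All 7 passed the filter on low counts that left 17307 genes for testing.

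Bulk mRNA sequencing covered 12 mice at 9 months of age, with 3 males and 3 females of each genotype. APP/PS1/Hras-/- mice carried the APP/PS1 transgenes and a knockout of Hras, and APP/PS1 mice carried the same transgenes with Hras intact. APP/PS1 is a transgenic amyloid model of Alzheimer's disease that expresses mutant forms of the amyloid precursor protein and of presenilin 1. Both groups carried these transgenes, and no mice without them were analysed here. The labels name neither the promoters of the transgenes nor the construction of the knockout allele.

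Ras proteins such as Hras bind GTP when growth factor or glutamate receptors are stimulated, and GTP-bound Ras brings RAF kinases to the plasma membrane. RAF phosphorylates MEK, MEK phosphorylates ERK, and ERK phosphorylates cytosolic kinases and transcription factors. KSR proteins bind RAF, MEK and ERK and hold them together. In cortical neurons the cascade is known for its part in synaptic plasticity and memory. It is switched on and off by phosphorylation, which mRNA levels do not measure.

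The targeted gene separated the genotypes in every library. Hras stood at 23.4, 20.8 and 20.4 CPM in APP/PS1/Hras-/- males and at 102, 79.7 and 83.9 CPM in APP/PS1 males. The values in females were 19.4, 20.4 and 23.3 CPM in APP/PS1/Hras-/- mice and 77.9, 79.6 and 73.6 CPM in APP/PS1 mice. CPM is a count relative to the library total, which was scaled by a TMM factor. Counts of Hras thus remained in all 6 APP/PS1/Hras-/- libraries, at a lower level than in any APP/PS1 library. The log2 difference was -1.95 (SE 0.077), a fold of 0.258 (95% interval 0.23 to 0.289), and the groups did not overlap (two-sided exact permutation p = 0.0022, the smallest that 6 against 6 mice can give).

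The depth was 13984692 to 20174131 counts per library, and the lowest count of any member was 939, for Ksr1 in APP/PS1/Hras-/- female 1. Markers of neurons, of excitatory cortical neurons and of 9 other cell types were present in each library, and Otx2, a choroid plexus gene, was the only one of 54 marker genes at 0 in a library. On the first principal component, which held 23.9% of the variance, APP/PS1/Hras-/- male 1 (score 39.5) and APP/PS1 female 2 (score 46.8) stood apart from the other 10 libraries. The RNA integrity number (RIN) was lowest, at 7.8, in APP/PS1 male 1. It lay between 8.2 and 8.7 in the other 11 libraries. In bulk tissue, fewer cells of a type and less RNA per cell cannot be told apart.

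The proximal promoters of the RAF and MEK gene pairs are shown because each pair encodes kinases with the same substrates, and their upstream sequences can be compared directly. Each is the stretch of 250 bases before the RefSeq transcription start on build GRCm38.p6, written on the strand of the gene. It lies at chrX:20848293-20848542 on the plus strand for Araf, chr6:39725464-39725713 on the minus strand for Braf, chr9:64253606-64253855 on the minus strand for Map2k1 and chr10:81105665-81105914 on the plus strand for Map2k2. The Araf window lies inside the gene as annotated in GENCODE M21, which runs from 20797814 to 20860519. Capitals mark exact matches, on either strand, to the GC box GGGCGG, the cAMP response element TGACGTCA, the NRF1 palindrome (GCGCA followed by its reverse complement) and the CCAAT box. No match overlapped another.
Araf: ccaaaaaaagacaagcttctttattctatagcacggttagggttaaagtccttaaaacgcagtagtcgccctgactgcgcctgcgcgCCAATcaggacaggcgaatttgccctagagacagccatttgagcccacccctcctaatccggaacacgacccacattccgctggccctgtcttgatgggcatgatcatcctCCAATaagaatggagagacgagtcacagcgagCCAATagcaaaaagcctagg
Braf: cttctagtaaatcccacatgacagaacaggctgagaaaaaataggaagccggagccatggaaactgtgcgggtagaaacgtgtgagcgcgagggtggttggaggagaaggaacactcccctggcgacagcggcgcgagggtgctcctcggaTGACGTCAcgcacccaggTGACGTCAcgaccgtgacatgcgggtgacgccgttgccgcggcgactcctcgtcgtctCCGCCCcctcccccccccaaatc
Map2k1: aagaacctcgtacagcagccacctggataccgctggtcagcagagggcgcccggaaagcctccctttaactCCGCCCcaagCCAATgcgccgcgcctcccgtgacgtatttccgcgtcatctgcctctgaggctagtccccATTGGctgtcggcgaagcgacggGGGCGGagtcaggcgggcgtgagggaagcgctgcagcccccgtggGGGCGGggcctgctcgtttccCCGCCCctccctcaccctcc
Map2k2: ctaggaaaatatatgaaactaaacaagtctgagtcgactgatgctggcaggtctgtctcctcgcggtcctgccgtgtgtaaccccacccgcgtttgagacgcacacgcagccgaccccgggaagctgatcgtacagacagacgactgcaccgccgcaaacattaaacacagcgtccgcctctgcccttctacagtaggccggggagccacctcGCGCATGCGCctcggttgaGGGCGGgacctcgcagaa

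The promoters within a pair differed in the motifs they held. The Araf promoter held 3 CCAAT boxes and none of the other motifs, and 51.2% of its bases were G or C, with 12 CpG dinucleotides. The Braf promoter held 2 cAMP response elements, 99 to 92 and 81 to 74 bases before the start, and 1 GC box, with 62.0% G or C and 24 CpG dinucleotides. The cAMP response element was rare in general, with a match in 1.55% of the 32851 mouse promoter windows of this length.

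The Map2k1 promoter held 4 GC boxes and 2 CCAAT boxes and was the richest in G and C of those shown, at 68.4%. The Map2k2 promoter, at 59.6%, held 1 GC box and 1 NRF1 palindrome, which had a match in 0.782% of all windows. The GC box matched in 32.7% and the CCAAT box in 33.8% of them, so these motifs were common. Of the 7 members, 6 had a RefSeq window, the exception being Mapk3. The Ksr2 window held 1 GC box. Of the Ksr1 windows, 1 held a GC box and a CCAAT box and the other, which lies inside the annotated gene, a GC box alone. A match is a run of letters and does not show that a factor binds there.

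The comparison of genotypes asked whether loss of Hras was accompanied by a change in the mRNA of the kinases and scaffolds downstream of Ras. None of the 7 members passed an adjusted p of 0.05 across sexes (edgeR quasi-likelihood test with Benjamini-Hochberg adjustment over all tested genes), where 3 of 17307 genes, or 0.0173%, passed in either direction. Hras was 1 of these 3. The members' log2 differences ran from -0.12 for Map2k2 to 0.17 for Ksr2, with a median of 0.04, against a median of 0.00 over all tested genes. Each member had an adjusted p of 0.9999. In 5 of the 7 the difference was positive and in 2 negative. For none of the 7 were the libraries of the genotypes free of overlap, as they were for 0.116% of all tested genes.

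**Figure D1:**
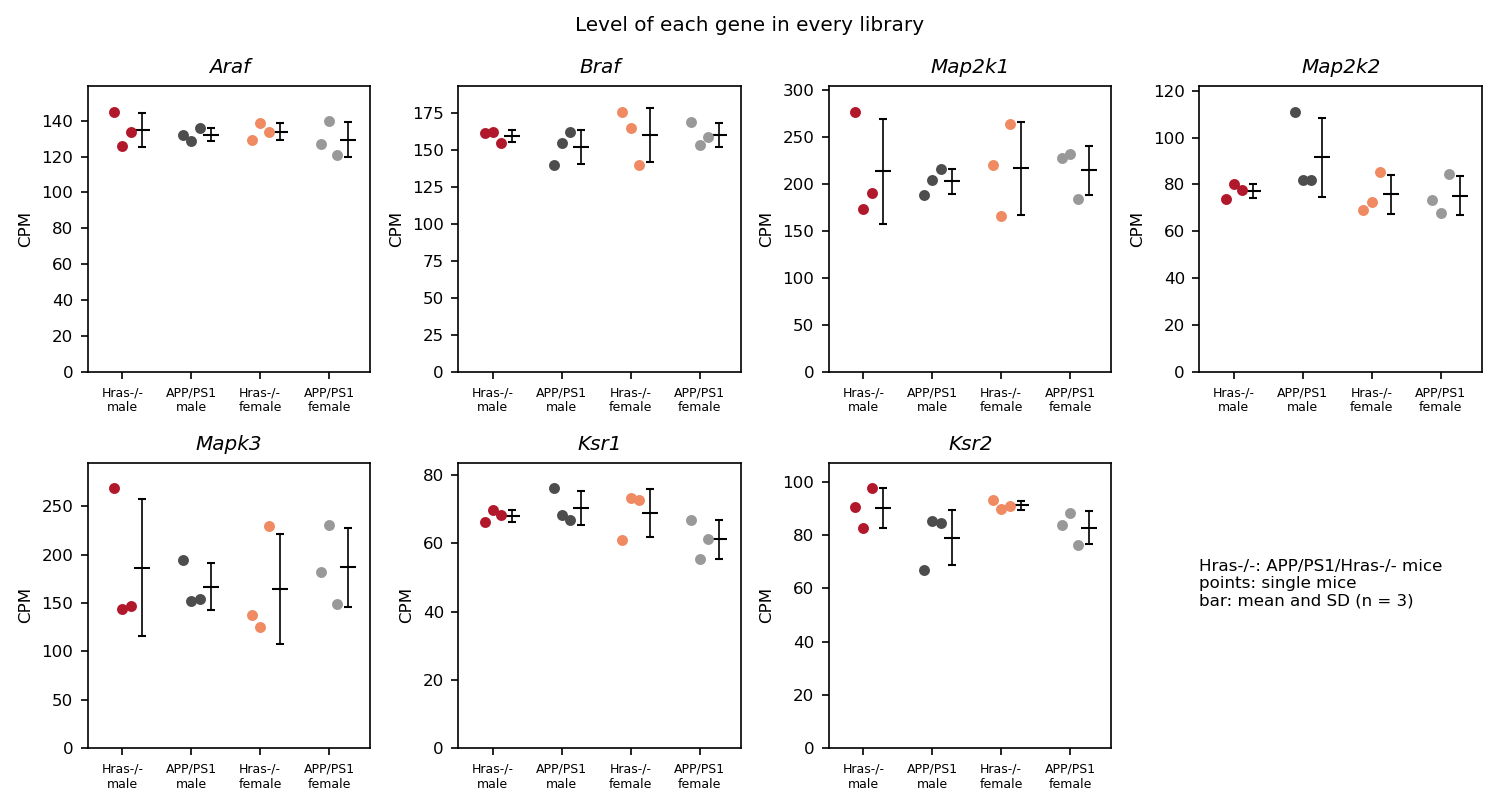
CPM (vertical axes, from 0) of each gene in the 12 libraries, with APP/PS1/Hras-/- mice to the left of APP/PS1 mice within each sex; points are single mice and bars give the mean and SD of 3. The genotypes overlap within each sex except for Map2k2 in males and Ksr2 in females, and the widest scatter is that of Mapk3, at 125 to 268 CPM, and Map2k1, at 165 to 276 CPM.

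Araf (ENSMUSG00000001127, GRCm38 chromosome X, 20797814 to 20860519, plus strand), which encodes A-RAF, an X-linked RAF kinase with weak activity towards MEK, had the steadiest level of the 7. It stood at 145, 126 and 134 CPM in APP/PS1/Hras-/- males and at 132, 129 and 136 CPM in APP/PS1 males. In females it stood at 129, 139 and 134 CPM in APP/PS1/Hras-/- mice and at 127, 140 and 121 CPM in APP/PS1 mice. The genotypes overlapped in both sexes, and all 12 values lay between 121 and 145 CPM. Across sexes the log2 difference was 0.04 (SE 0.054), a fold of 1.03 with a 95% interval of 0.948 to 1.11.

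Braf (ENSMUSG00000002413, chromosome 6, 39603237 to 39725463, minus strand), which encodes B-RAF, the RAF kinase with the strongest activity towards MEK and a high level in neurons, differed between genotypes as little as Araf. It stood at 162, 162 and 155 CPM in APP/PS1/Hras-/- males and at 140, 155 and 162 CPM in APP/PS1 males. Female values were 176, 165 and 140 CPM in APP/PS1/Hras-/- mice and 169, 153 and 159 CPM in APP/PS1 mice. The lowest values of all, 140 CPM in APP/PS1/Hras-/- female 3 and 140 CPM in APP/PS1 male 1, came 1 from each genotype. The log2 difference was 0.03 (SE 0.063), a fold of 1.02 with a 95% interval of 0.932 to 1.12. The ratio of Araf to Braf CPM within a library was 0.844 ± 0.08 in APP/PS1/Hras-/- mice and 0.84 ± 0.078 in APP/PS1 mice (SD, n = 6 each).

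Map2k1 (ENSMUSG00000004936, chromosome 9, 64185770 to 64253631, minus strand) encodes MEK1, one of the dual-specificity kinases that activate ERK. It stood at 276, 173 and 190 CPM in APP/PS1/Hras-/- males and at 188, 204 and 215 CPM in APP/PS1 males. In females it stood at 220, 165 and 264 CPM in APP/PS1/Hras-/- mice and at 227, 231 and 184 CPM in APP/PS1 mice. Both the highest and the lowest values belonged to APP/PS1/Hras-/- mice, which spread more widely (215 ± 47.0 CPM) than APP/PS1 mice (208 ± 19.7 CPM, SD, n = 6 each) around nearly the same mean. That difference in spread was not tested. The log2 difference of the means was 0.04 (SE 0.13), with a fold of 1.03 and a 95% interval of 0.851 to 1.25. It was -0.06 without APP/PS1/Hras-/- male 1 and -0.03 without APP/PS1/Hras-/- female 3.

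Map2k2 (ENSMUSG00000035027, chromosome 10, 81105915 to 81133975, plus strand), the gene of MEK2, the close relative of MEK1 with the same substrates, had the lowest point estimate of the 7. It stood at 74.0, 80.1 and 77.5 CPM in APP/PS1/Hras-/- males and at 111, 82.1 and 81.7 CPM in APP/PS1 males. Females had 69.3, 72.6 and 85.2 CPM in APP/PS1/Hras-/- mice and 73.4, 67.9 and 84.4 CPM in APP/PS1 mice. The males of the 2 genotypes did not overlap, as was so for 10.3% of all tested genes, while the females overlapped throughout.

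In males the log2 difference of Map2k2 was -0.25 (SE 0.12), a fold of 0.843 with a 95% interval of 0.7 to 1.02 (adjusted p = 0.945 in edgeR, where 0.0116% of genes passed). The two-sided exact permutation test gave p = 0.1, the smallest that 3 against 3 mice can give. Without APP/PS1 male 1, the library of 111 CPM and of the lowest RIN, it was -0.09 (SE 0.11). With RIN as a covariate it was 0.29 (SE 0.17), the opposite sign. Every APP/PS1/Hras-/- male had a higher RIN than every APP/PS1 male, so genotype and RIN cannot be told apart there. Across sexes the log2 difference was -0.12 (SE 0.092), with a fold of 0.921 and a 95% interval of 0.803 to 1.06. In females it was 0.01 (SE 0.12). The ratio of Map2k1 to Map2k2 CPM within a library was 2.82 ± 0.62 in APP/PS1/Hras-/- mice and 2.58 ± 0.62 in APP/PS1 mice (SD, n = 6 each).

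Mapk3 (ENSMUSG00000063065, chromosome 7, 126759601 to 126765819, plus strand) encodes ERK1, the terminal kinase of the cascade, and lies 14.4 Mb from Hras on the same chromosome. It stood at 268, 144 and 147 CPM in APP/PS1/Hras-/- males and at 195, 152 and 154 CPM in APP/PS1 males. In females it stood at 138, 125 and 230 CPM in APP/PS1/Hras-/- mice and at 182, 230 and 149 CPM in APP/PS1 mice. A single library lay far above the rest of its group in APP/PS1/Hras-/- males and in APP/PS1/Hras-/- females, and the genotypes overlapped in both sexes.

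The mean of Mapk3 was 175 ± 58.8 CPM in APP/PS1/Hras-/- mice and 177 ± 31.9 CPM in APP/PS1 mice (SD, n = 6 each). The log2 difference was -0.01 (SE 0.21), with a fold of 0.99. Its 95% interval, 0.722 to 1.36, was the widest of the 7 genes. The estimate was -0.19 without APP/PS1/Hras-/- male 1 and 0.08 without APP/PS1 female 2. With RIN as a covariate the difference in males was 0.96 (SE 0.51), against 0.16 (SE 0.30) without it. Genotype and RIN cannot be told apart in males, where every APP/PS1/Hras-/- library had a higher RIN than every APP/PS1 library. Transcripts of Gm15546, Gm5675 and Gm7746 match Mapk3 over at least 300 bases at 90% identity or more, and each had 0 counts in all 12 libraries.

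Ksr1 (ENSMUSG00000018334, chromosome 11, 79013440 to 79146407, minus strand) encodes a scaffold that binds MEK constitutively and RAF and ERK upon Ras activation. It stood at 66.1, 69.6 and 68.3 CPM in APP/PS1/Hras-/- males and at 76.1, 68.2 and 67.0 CPM in APP/PS1 males. Female levels were 60.9, 73.4 and 72.6 CPM in APP/PS1/Hras-/- mice and 66.9, 55.3 and 61.2 CPM in APP/PS1 mice. The genotypes overlapped in both sexes, with the highest value (76.1 CPM) and the lowest (55.3 CPM) both in APP/PS1 mice. Across sexes the log2 difference was 0.06 (SE 0.071), a fold of 1.04 with a 95% interval of 0.939 to 1.16. It was 0.02 without APP/PS1 female 2, which held the lowest value, and 0.13 (SE 0.067) with RIN as a covariate. In females it was 0.17 (SE 0.094, adjusted p = 0.991 in edgeR, where 0.0116% of genes passed).

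Ksr2 (ENSMUSG00000061578, chromosome 5, 117414000 to 117775003, plus strand), a relative of Ksr1 expressed mainly in the brain and required in mice for normal energy balance, had the highest point estimate. It stood at 90.7, 82.6 and 97.5 CPM in APP/PS1/Hras-/- males and at 67.1, 85.4 and 84.6 CPM in APP/PS1 males. In females it stood at 93.0, 89.7 and 90.8 CPM in APP/PS1/Hras-/- mice and at 83.9, 88.4 and 76.3 CPM in APP/PS1 mice. With TMM factors the females did not overlap, as was so for 9.35% of all tested genes. Their two-sided exact permutation p was 0.1, and 0.3 without TMM factors, so that separation depended on the scaling. In males 2 of 3 APP/PS1/Hras-/- values lay above all APP/PS1 values.

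Ksr2 averaged 90.7 ± 4.88 CPM in APP/PS1/Hras-/- mice and 80.9 ± 7.90 CPM in APP/PS1 mice (SD, n = 6 each). The log2 difference was 0.17 (SE 0.069), a fold of 1.12 with a 95% interval of 1.01 to 1.24. The edgeR p was 0.0308 before adjustment and 0.9999 after it. Unadjusted, 291 genes, or 1.68% of those tested, had a p under 0.05, and Ksr2 ranked 164 by p. The two-sided exact permutation test gave p = 0.0216, not adjusted for the 7 genes, and 0.0411 without TMM factors. The estimate was 0.19 (SE 0.10) in males and 0.14 (SE 0.10) in females. Without APP/PS1 male 1, which held the lowest value, it was 0.12 (SE 0.056). With RIN as a covariate it was 0.11 (SE 0.071).

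**Figure D2:**
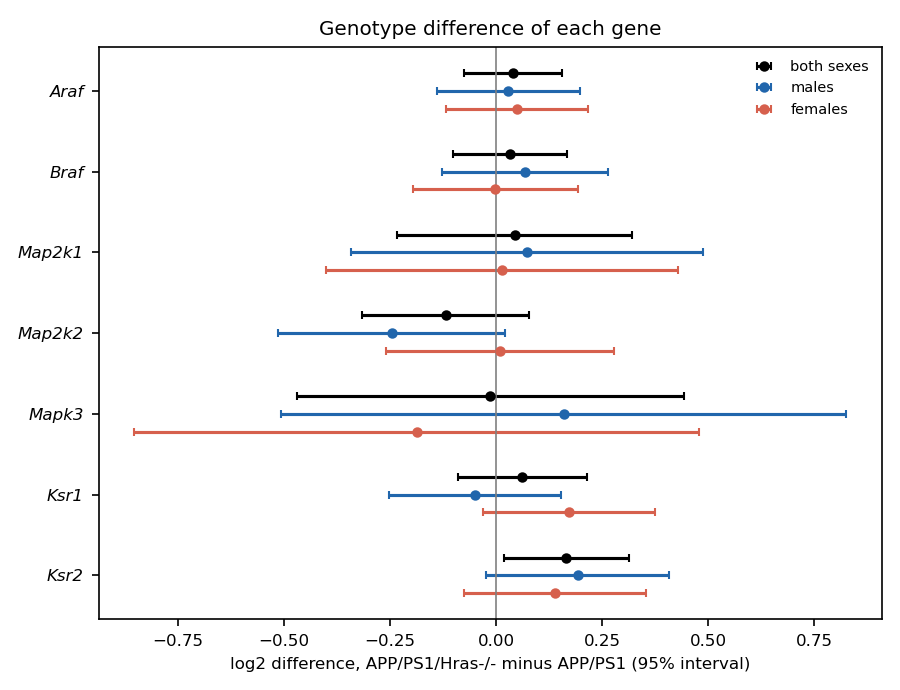
Log2 difference (APP/PS1/Hras-/- minus APP/PS1, horizontal axis) of each gene with its 95% interval, across both sexes, in males and in females, from the edgeR fits. The interval across sexes leaves out 0 for Ksr2 alone, before adjustment over the 17307 genes, and it is widest for Mapk3.

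APP/PS1 male 1 stood at an end of the range of several members. Among the 12 libraries it was the highest for Map2k2 (111 CPM) and Ksr1 (76.1 CPM) and the lowest for Ksr2 (67.1 CPM) and Braf (140 CPM). It also had the lowest RIN, 7.8. The part of RNA quality in these values was not tested.

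Whether the genotype difference depended on sex was asked with the interaction, the difference in females minus that in males. No gene passed the adjusted threshold for it (0 of 17307 in edgeR, DESeq2 and limma-voom, with 1248 genes at an unadjusted edgeR p under 0.05). The largest interactions among the members were -0.35 for Mapk3 (SE 0.42), 0.26 for Map2k2 (SE 0.18) and 0.22 for Ksr1 (SE 0.13). Their adjusted p values were 0.84, 0.712 and 0.678. The estimate for Mapk3 was 0.01 without APP/PS1/Hras-/- male 1 and -1.36 (SE 0.66) with RIN as a covariate. RIN differed by genotype in opposite directions in males and females, so the interaction could hardly be told apart from it. The intervals remained wide, with a 95% interval for the ratio of folds of 0.409 to 1.51 for Mapk3, and so left room for sizeable differences between the sexes.

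Females and males were also compared across genotypes, for which 12 genes, or 0.0693%, passed the adjusted threshold, none of them a member. The X-linked Araf averaged 132 ± 7.29 CPM in females and 133 ± 6.67 CPM in males (SD, n = 6 each), a log2 difference of -0.02 (SE 0.054). Map2k2 had the largest point estimate of the 7. It averaged 75.5 ± 7.52 CPM in females and 84.4 ± 13.4 CPM in males, a log2 difference of -0.16 (SE 0.092, adjusted p = 0.989 in edgeR). Without APP/PS1 male 1 it was -0.07.

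Levels of different genes were compared per kilobase of exon sequence. Per length, Mapk3 was the highest of the 7 (78.1 ± 20.0 CPM per kb over the 12 libraries), followed by Map2k1 (62.4 ± 10.2). Both stood far above the RAF and KSR genes. Araf followed at 20.3 ± 1.03 CPM per kb, Map2k2 at 14.1 ± 2.0, Braf at 11.4 ± 0.76, Ksr1 at 9.45 ± 0.82 and Ksr2 at 6.32 ± 0.59 (SD, n = 12). The terminal kinase and MEK1 thus exceeded the RAF kinases that act upstream of them, and the scaffolds were the lowest.

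Over the 12 libraries the range of Map2k1 lay above that of Araf, and the range of Ksr1 above that of Ksr2, without overlap. The ranges of Araf and Map2k2 overlapped through APP/PS1 male 1, but Araf was above Map2k2 within each library, the closest being 20.2 against 19.6 CPM per kb in APP/PS1 male 1. The ranges of Mapk3 and Map2k1, of Map2k2 and Braf, and of Braf and Ksr1 overlapped. The order of the means was the same in APP/PS1/Hras-/- males, APP/PS1 males, APP/PS1/Hras-/- females and APP/PS1 females. It also held with the length of the longest transcript. With the length of the coding sequence Map2k1 (179 CPM per kb) came before Mapk3 (155), and Ksr2 (30.1) before Ksr1 (25.6). By that length Map2k2 (76.1) also came before Araf (72.9) in APP/PS1 males. In the other groups Braf came before Map2k2 (66.1 against 64.2 in APP/PS1/Hras-/- males). The order within these pairs thus depends on the length used.

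**Figure D3:**
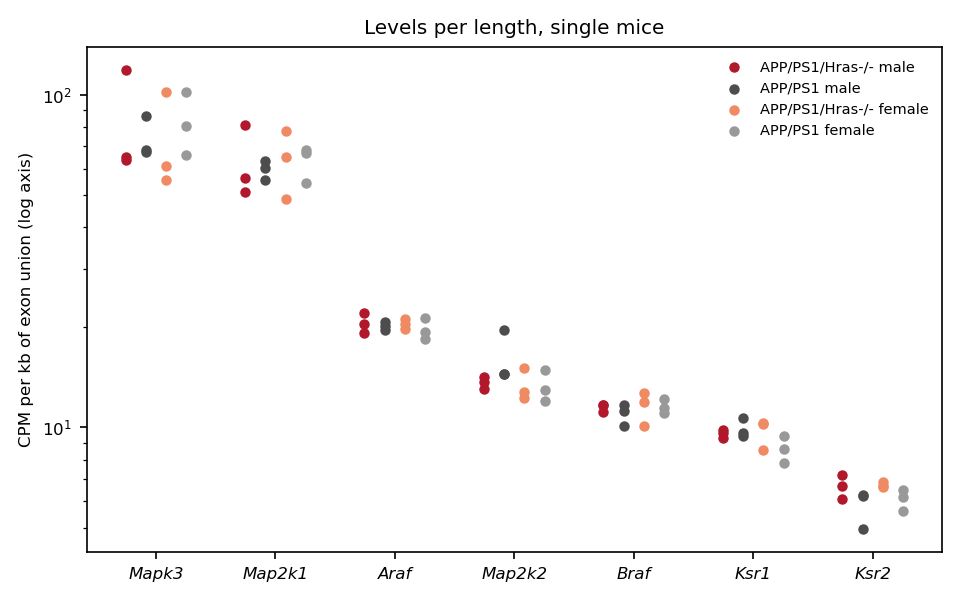
CPM per kb of exon union (vertical log axis) of each gene in single mice, with genes in order of their mean and APP/PS1/Hras-/- mice to the left of APP/PS1 mice within each sex. Map2k1 lies above Araf without overlap, and Ksr1 above Ksr2 likewise.

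The members differed widely in their scatter between mice. The SD of log2 CPM within the 4 groups of genotype and sex was 0.39 for Mapk3 and 0.27 for Map2k1. Of the 704 genes within 1.25-fold of the mean level of Mapk3, 96.9% varied less, their median SD being 0.12. Of the 607 genes near the level of Map2k1, 92.6% varied less. Map2k2, at 0.17, exceeded 79.6% of the genes near its level. Braf (0.11), Ksr1 (0.11) and Ksr2 (0.13) lay near the middle of theirs, and Araf (0.081) below it, with 19.7% of genes varying less.

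Mapk3 and Map2k1 varied together. The libraries highest in Mapk3, APP/PS1/Hras-/- male 1 (268 CPM), APP/PS1/Hras-/- female 3 (230 CPM) and APP/PS1 female 2 (230 CPM), were also the highest in Map2k1, at 276, 264 and 231 CPM. APP/PS1/Hras-/- female 2 was the lowest for both genes. Pearson's r of their log2 CPM over the 12 libraries was 0.81 and Spearman's rho 0.76. The r was 0.84 after subtraction of the group means, and 0.64 without the 2 libraries farthest from the median of Map2k1. It is a description of 12 libraries that share the same TMM scaling.

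The same 3 libraries were the lowest for all 4 of 4 oligodendrocyte genes, Mbp, Mog, Mag and Mobp, which encode myelin proteins. The summed level of the 4 was 2279 CPM in APP/PS1/Hras-/- male 1, 2692 CPM in APP/PS1/Hras-/- female 3 and 2172 CPM in APP/PS1 female 2, against 3292 to 5251 CPM in the other 9 libraries. For the other 10 marker lists the summed levels of these 3 libraries overlapped those of the other 9, among them neurons, at 3593 to 4533 CPM against 4385 to 5435 CPM. Choroid plexus genes summed to 3000 CPM in APP/PS1 female 2, to between 33.9 and 582 CPM in the other 9, and to 9.64 CPM at the lowest among the 3. The sums of the oligodendrocyte genes overlapped between genotypes, with 2279 to 5251 CPM in APP/PS1/Hras-/- mice and 2172 to 4749 CPM in APP/PS1 mice. These 3 libraries were picked by their Mapk3 levels. Among them, APP/PS1/Hras-/- male 1 and APP/PS1 female 2 also stood apart on the first principal component. How many of all tested genes separate the 3 libraries from the other 9 was not counted. The part of tissue composition in the levels of Mapk3 and Map2k1 was not tested.

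**Figure D4:**
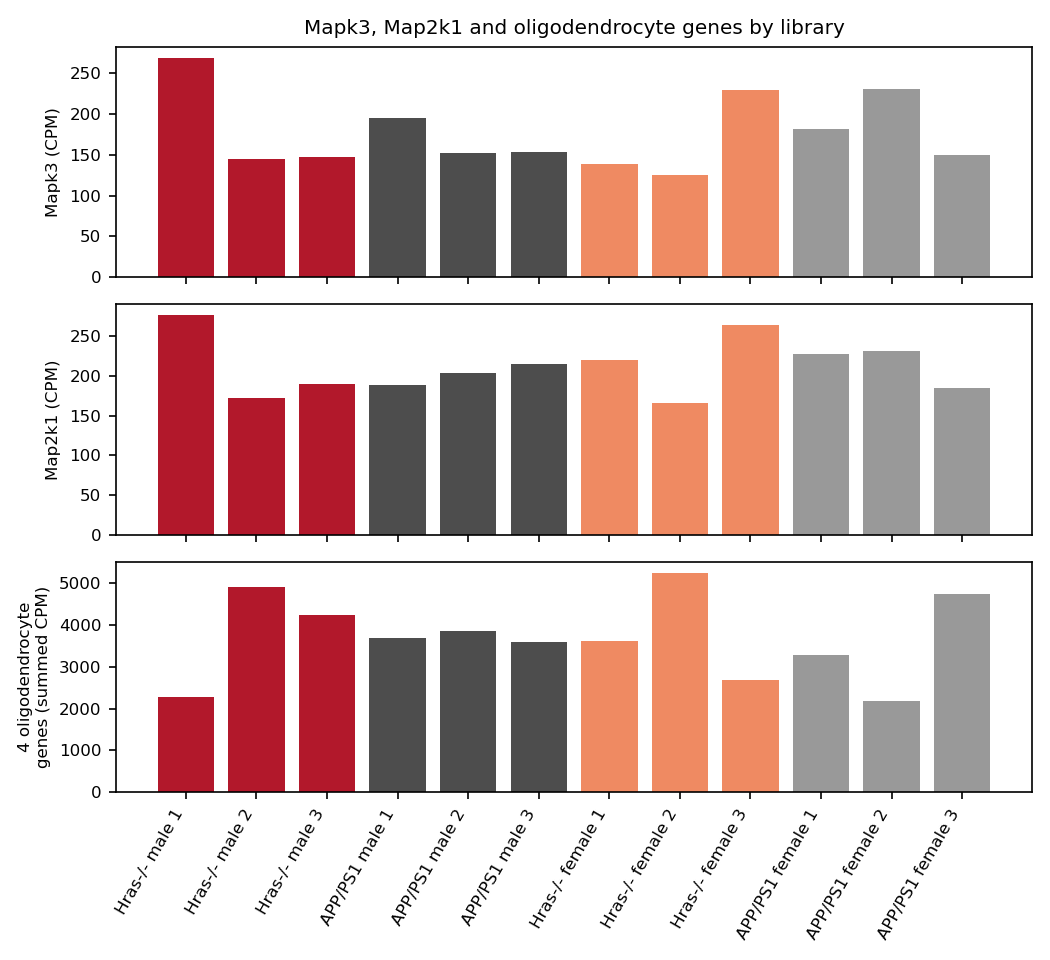
CPM of Mapk3 and of Map2k1 and the summed CPM of 4 oligodendrocyte genes (vertical axes, from 0) in each of the 12 libraries, with APP/PS1/Hras-/- mice to the left of APP/PS1 mice within each sex. The 3 libraries highest in Mapk3 (230 to 268 CPM) are the highest in Map2k1 and the lowest in the oligodendrocyte genes. These 3 were picked by their Mapk3 levels, and how many of all tested genes separate them from the rest was not counted.

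Correlations of the other pairs of members were weaker. Of the 21 pairs, the next in size were Map2k2 with Ksr2 (r = -0.79) and Braf with Map2k2 (r = -0.71). These came to -0.47 and -0.35 without the 2 libraries farthest from the median of the gene named first. Between the MEK genes r was -0.24, and between Araf and Braf it was -0.12. Map2k2 and Ksr1 had an r of 0.62, which was 0.19 without the 2 farthest libraries.

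Among 12101 genes of at least 5 CPM on average, those whose log2 CPM followed a member most closely over the 12 libraries were named by the 2 highest values of Pearson's r. For Mapk3 they were Neurl1a (r = 0.98), a ubiquitin ligase gene, and Wdr6 (0.97). Map2k1 was followed most closely by Gng2 (0.97), the gene of a G protein gamma subunit, and Rtn1 (0.97), a reticulon gene of neurons. The genes closest to Map2k2 were Vps37d (0.99), of the ESCRT machinery, and Pdlim7 (0.97).

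For Braf the closest were Ralgapa1 (0.95), which encodes a subunit of a GTPase-activating complex for Ral, and Birc6 (0.94), of the inhibitor of apoptosis family. Araf came closest to Stn1 (0.89), of the telomere capping complex, and Etaa1 (0.87). Ksr1 came closest to Gfm2 (0.92) and Faah (0.88), the latter encoding an enzyme that degrades anandamide. Elmsan1 and Pcdhga9 (both 0.89) were the closest to Ksr2. These values are maxima over many genes in 12 libraries that differ in depth and tissue content.

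The surrounding cascade was described with 5 lists of 91 genes in all. None of their tested members passed the adjusted threshold in either direction, across sexes, in males, in females, in the interaction or between the sexes. Regulators and partners of RAF, such as 14-3-3 proteins, chaperones, phosphatases and p21-activated kinases, had 29 of 30 genes tested, with 16 of them above and 13 below 0. The median log2 difference across sexes was 0.00, the same as over all tested genes. Mark3, a kinase that phosphorylates KSR1, had the smallest p of that list, with 79.7 ± 3.47 CPM in APP/PS1/Hras-/- mice and 75.8 ± 1.34 CPM in APP/PS1 mice (SD, n = 6 each), a log2 difference of 0.07 (SE 0.047, adjusted p = 0.9999 in edgeR).

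Scaffolds, anchors and phosphatases of MEK and ERK had 13 of 14 genes tested and a median of 0.00. The smallest p there was that of Iqgap2, a scaffold gene, with 34.4 ± 8.53 CPM in APP/PS1/Hras-/- mice and 30.3 ± 4.21 CPM in APP/PS1 mice, a log2 difference of 0.17 (SE 0.14). Kinases and transcription factors downstream of ERK, all 13 tested, had a median of 0.02. Mknk2, a kinase of the translation factor eIF4E, stood at 43.7 ± 4.14 CPM in APP/PS1/Hras-/- mice and 47.5 ± 7.82 CPM in APP/PS1 mice (SD, n = 6 each), a log2 difference of -0.12 (SE 0.10).

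The lists of other MAP kinases, MAP2 kinases and MAP3 kinases likewise held no gene past the threshold. Other MAP kinases and MAP2 kinases, all 17 tested, had a median log2 difference of 0.02, and MAP3 kinases outside the RAF family, 16 of 17 tested, had 0.01. Mapk8, the gene of the stress kinase JNK1, stood at 113 ± 2.57 CPM in APP/PS1/Hras-/- mice and 106 ± 5.41 CPM in APP/PS1 mice, a log2 difference of 0.09 (SE 0.049). Map3k9, a mixed lineage kinase gene, stood at 56.2 ± 5.83 CPM in APP/PS1/Hras-/- mice and 51.3 ± 4.31 CPM in APP/PS1 mice (SD, n = 6 each), a log2 difference of 0.13 (SE 0.077). Across sexes none of these lists held a gene with an unadjusted p under 0.05, against 1.68% of all tested genes and 1 of the 7 members. Between the sexes, 3 of 13 genes downstream of ERK and 2 of 17 other MAP kinase genes had an unadjusted p under 0.05. In males 1 of 29 RAF regulators and 1 of 13 scaffolds had one, and in females 1 of 17 other MAP kinase genes. For the interaction, 1 gene had one in each list but that of genes downstream of ERK. No member had an unadjusted p under 0.05 in males (3.91% of all tested genes), in females (3.81%), for the interaction (7.21%) or between the sexes (4.65%).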

How the data were processed

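TruSeq Stranded mRNA libraries were made from frontal cortex RNA of 12 mice, per the labels' protocols. The deposited table holds counts per gene and library, which the authors left unnormalized. Trimmomatic 0.33, FastQC 0.11.7, HISAT2 2.1.0, featureCounts and the builds mm10 and mm9 are named in the submitters' processing notes. Not given in the sources used here are the gene annotation, whether counting used strand, and how multiply aligned reads were handled. Members overlap exons of genes on the opposite strand over 9 bases (Araf with Syn1), 146 bases (Braf with Ndufb2) and 186 bases (Ksr1 with Gm11201), at most 2.62% of their exon length, and there the counts may be shared.

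Gene identifiers were matched to GENCODE M21 (GRCm38). Of 54532 genes 37 had no match, with 0.0099% of the counts. Genes were kept by filterByExpr over the 4 groups of genotype and sex, and tested with edgeR 4.0.16 in R 4.3.3 by its quasi-likelihood test (TMM scaling, robust dispersions, Benjamini-Hochberg threshold 0.05 over 17307 genes). The effects across sexes and of sex came from an additive model, the effects within each sex and the interaction from a model of the 4 group means. SE and 95% intervals were derived from the F statistic. Mean log2 CPM (prior count 2) of single genes was compared by exact permutation, two-sided. Replicates are separate mice, so the p-values cover the mice sampled. The tests were checked on simulated data, whose changes were all larger than any member's difference across sexes. How often changes as small as those of the members would be called was not examined.

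The members and lists were chosen with earlier results of these data known. Of the marker genes, 1 is not reported here. All 7 members are named in each comparison, as are Hras, the gene of each pathway list with the smallest p, any list gene past the threshold, and the 2 genes most like each member. Alternatives covered RLE scaling, DESeq2 1.42.0, limma-voom (limma 3.58.1), other filters, RIN as a covariate, models without a sex term or of 1 sex, omission of 2 libraries or of each library in turn, other lengths and other correlations.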

Additional observations from a re-analysis of the deposited data

How the results depend on the processing

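None of the 35 differences of the 7 members passed the adjusted threshold, nor did any of the 686 values under the alternatives, among which the lowest adjusted p was 0.493 (edgeR, Map2k2 between the sexes without APP/PS1/Hras-/- male 1). Most differences were small against their errors. With each library left out in turn, 17 of the 35 changed sign in at least 1 fit. The cause of these sign changes was not tested. For Ksr2 across sexes the unadjusted edgeR p ran from 0.0203 without APP/PS1 female 2 to 0.133 with RIN as a covariate, while the estimate stayed positive. No paired analysis was possible because the labels give no replicate numbers that mice of different groups share.

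With each library left out in turn, the log2 difference across sexes ran from -0.062 to 0.12 for Map2k1 and from -0.19 to 0.084 for Mapk3. The sex difference ran from -0.020 to 0.15 for Map2k1, -0.13 to 0.16 for Mapk3 and -0.0084 to 0.068 for Ksr2. In males the genotype difference ran from -0.024 to 0.077 for Araf, -0.16 to 0.20 for Map2k1, -0.19 to 0.31 for Mapk3 and -0.080 to 0.0084 for Ksr1. In females it ran from -0.073 to 0.089 for Braf, -0.15 to 0.18 for Map2k1 and -0.083 to 0.11 for Map2k2. The interaction ran from -0.025 to 0.081 for Araf, -0.14 to 0.021 for Braf, -0.22 to 0.17 for Map2k1, -0.66 to 0.0057 for Mapk3 and -0.11 to 0.053 for Ksr2.

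With RIN as a covariate the difference across sexes was -0.020 for Braf, 0.00098 for Map2k2 and 0.011 for Mapk3, and the sex difference of Mapk3 was 0.0019. In males it was -0.24 for Braf, 0.29 for Map2k2, 0.15 for Ksr1 and -0.15 for Ksr2, and in females 0.069 for Braf and -0.12 for Map2k2. The interaction with RIN was -0.035 for Araf, 0.31 for Braf, -0.41 for Map2k2, -0.024 for Ksr1 and 0.37 for Ksr2. Mapk3 kept its sign but moved furthest, to 0.96 in males and -1.36 for the interaction. In males every APP/PS1/Hras-/- library had a higher RIN than every APP/PS1 library, so genotype and RIN cannot be told apart there. In females RIN ran the other way, at 8.3 to 8.5 in APP/PS1/Hras-/- mice and 8.5 to 8.6 in APP/PS1 mice. The interaction could thus hardly be told apart from RIN either.

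Without the 2 libraries apart on the first component, the difference was -0.041 for Map2k1 across sexes, 0.073 for Mapk3 between the sexes, -0.023 for Araf, -0.16 for Map2k1 and -0.19 for Mapk3 in males, and -0.058 for Map2k2 in females. The interaction was then 0.23 for Map2k1 and 0.18 for Mapk3. With limma-voom Map2k1 stood at -0.0051 in females, and without TMM factors Map2k2 in females at -0.011 (difference of mean log2 CPM).

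Genes past the threshold numbered 3 across sexes in edgeR, 7 in DESeq2 and 5 without a filter on low counts. They numbered 2 in males against 4 in DESeq2, and 2 in females against 5 in DESeq2 and 4 without a filter. Between the sexes there were 12, against 26 in DESeq2 and 9 to 20 with 1 library left out, 20 being the count without APP/PS1/Hras-/- male 2.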
